A study of Mus musculus with 8 samples.

Results

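The genes described here are 7 members of the cholesterol synthesis pathway and its control by SREBP2: Srebf2, Insig1, Hmgcs1, Idi1, Fdft1, Sqle and Lss. They were chosen by gene symbol, each symbol matched 1 Ensembl gene, and together they are 7 of the 54838 genes in the count table. RNA was profiled by 3′ sequencing in sorted acute myeloid leukemia (AML) cells of RUNX1-RUNX1T1 genotype and C57BL/6 background. The figure legend of the study gives the sort as cKit-positive and CD11b-negative, whereas its results text gives cKit-high for this model. The cells had been transplanted into sub-lethally irradiated Ptprca recipient mice, per the labels, although the methods of the study name irradiation for its other models and not for this one. Vehicle samples (n = 4) came from mice given the vehicle alone, and AG636 samples (n = 4) from mice given AG636 by oral gavage at 100 mg/kg b.i.d., which the legend gives as a single day of treatment. AG636 inhibits DHODH, the mitochondrial enzyme that makes orotate in pyrimidine synthesis. Both groups carry the fusion, and the age and sex of the mice are not given in the labels. The labels name bone marrow and spleen without saying which sample came from which, and the legend gives fewer mice per group than there are samples, so that p-values may measure in part a spread between samples of the same mouse. The comparison asks which transcripts differ between leukemic cells with and without DHODH inhibition.

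Cells make cholesterol from acetyl-CoA through mevalonate, isoprenoid units, squalene and lanosterol. SREBP2, the product of Srebf2, is a transcription factor held in the endoplasmic reticulum with its escort SCAP. When sterols are scarce it is carried to the Golgi, cut by proteases and released to the nucleus, where it raises the genes of the pathway. When sterols are plentiful, INSIG proteins retain the complex, and because Insig1 is itself a SREBP target this forms a feedback loop. Dividing cells, leukemic cells among them, need sterols for new membranes and isoprenoids for prenylated proteins, dolichol and ubiquinone.

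Libraries held between 6120030 and 7162036 counts, of which the 7 members took between 833 and 1559. Expression is given as CPM, the count scaled to a common library size with TMM factors, and 1 count was worth between 0.145 and 0.160 CPM. Because the libraries read transcript ends, CPM was not divided by gene length, and levels of different genes were not ranked. In multidimensional scaling Vehicle sample 4 and AG636 sample 3 stood apart from the other samples of their groups, and results are given with and without them where they rest on them. Among 9 markers of the labelled immature myeloid cells, Kit (which the sort used), Myb and Gata2 were abundant, with means of 163, 447 and 370 CPM in Vehicle, whereas the progenitor gene Flt3 had between 1 and 5 counts a sample and the myeloid granule genes Mpo, Elane, Prtn3 and Ctsg at most 33. The progenitor gene Cd34 had between 16 and 82 counts a sample in 7 samples and 223 in AG636 sample 3. Erythroid genes were abundant, and the 10 erythroid markers summed to between 6335 and 10280 CPM in Vehicle and between 8831 and 10750 CPM in AG636. Markers of other cells were low. The sums ranged in Vehicle and in AG636 from 6.61 to 15.1 and from 11.7 to 25.2 CPM for 8 B cell markers, from 8.37 to 15.2 and from 9.95 to 24.7 CPM for 9 T and NK cell markers, from 44.4 to 104 and from 16.2 to 205 CPM for 9 neutrophil markers, from 5.69 to 9.13 and from 6.54 to 15.6 CPM for 8 monocyte and macrophage markers, and from 12.0 to 18.1 and from 13.1 to 61.0 CPM for 6 megakaryocyte markers, 2 of which were at 0 in every sample. Single markers with a limma adjusted p under 0.05 were Cd79a of B cells and the erythroid Hbb-bt. Cd79a was higher in AG636 by 1.83 on the log2 scale (adjusted p = 0.0266, from 2 to 22 counts a sample). Hbb-bt was higher by 0.90 (adjusted p = 0.0238). Of all genes tested, 5.47% were higher at this threshold. The part of all these cell types in the results below was not tested. In bulk RNA, fewer cells of a type and less RNA per cell cannot be told apart.

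All 7 members passed the filter on low counts. Idi1 and Sqle, an isomerase of the isoprenoid steps and the epoxidase that acts on squalene, were lower in AG636. The other 5 members, including Srebf2, did not pass the test. By limma-voom with Benjamini-Hochberg adjustment over the 10911 genes tested, 2 of 7 members were called (adjusted p under 0.05), both lower, where 14.0% of all genes tested were called in either direction, 8.49% lower and 5.47% higher. An unadjusted p under 0.05 was reached by the same 2 members and by 30.7% of all genes tested. The median log2 fold change of the members was −0.15, and that of all genes tested −0.0056. Leaving out single samples moved the median of the members between −0.31 (without AG636 sample 4) and −0.034 (without AG636 sample 2). Groups did not overlap for 1 of the 7 members, Idi1, against 22.2% of all genes tested, 12.9% lower and 9.35% higher in AG636. No test was made of whether members were called more often than other genes. The called genes of the whole table split into 597 higher and 926 lower under TMM scaling and into 918 higher and 571 lower with library size alone. Without Vehicle sample 4 and AG636 sample 3, Idi1 alone was called among the members.

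**Figure D1:**
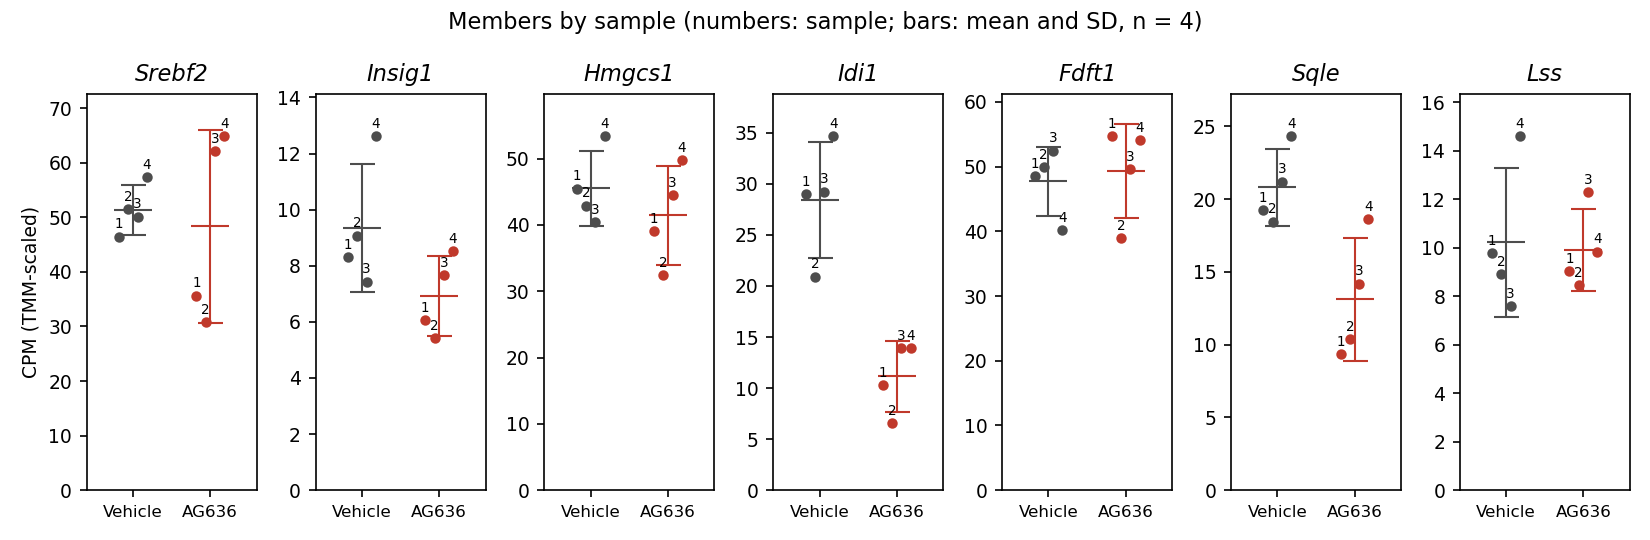
Expression of the 7 members in CPM (vertical axes, each from 0) in the 4 Vehicle samples (gray) and the 4 AG636 samples (red). Points are samples with their numbers, and bars show mean and SD. Idi1 is the member whose groups do not overlap, and the Srebf2 values of the AG636 samples lie on both sides of the Vehicle samples.

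Promoter sequences were read from RefSeq for the 5 members with an entry (Srebf2, Insig1, Hmgcs1, Idi1 and Lss). They run from 250 bases before to 50 bases after the RefSeq start site in build GRCm38.p6. That start site differs from the start of the gene in the count table, which is given below for each member. They show which letters known from sterol-regulated promoters lie near these members. Sqle had no entry, so Idi1 is the only called member among them. Called and uncalled members therefore cannot be contrasted. Motifs were searched on both strands as TCACNCCAC (a form of the sterol regulatory element), CACCCCAC (another form of that element), CCAAT (bound by NF-Y, a partner of SREBP), GGGCGG (bound by Sp1) and CACGTG (the E-box). Shown 5′ to 3′ on the strand of the gene are Idi1 (chr13:8885356-8885655, + strand), the member that fell most, Hmgcs1 (chr13:119690101-119690400, + strand), which was not called, and Insig1 (chr5:28071162-28071461, + strand), the feedback gene. Capitals mark every match to a motif on either strand.
Idi1: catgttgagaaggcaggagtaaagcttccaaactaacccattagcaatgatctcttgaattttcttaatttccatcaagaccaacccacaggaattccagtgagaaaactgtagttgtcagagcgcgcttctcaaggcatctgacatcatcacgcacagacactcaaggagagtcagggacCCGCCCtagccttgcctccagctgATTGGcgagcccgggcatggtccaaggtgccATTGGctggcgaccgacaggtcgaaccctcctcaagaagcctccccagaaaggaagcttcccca
Hmgcs1: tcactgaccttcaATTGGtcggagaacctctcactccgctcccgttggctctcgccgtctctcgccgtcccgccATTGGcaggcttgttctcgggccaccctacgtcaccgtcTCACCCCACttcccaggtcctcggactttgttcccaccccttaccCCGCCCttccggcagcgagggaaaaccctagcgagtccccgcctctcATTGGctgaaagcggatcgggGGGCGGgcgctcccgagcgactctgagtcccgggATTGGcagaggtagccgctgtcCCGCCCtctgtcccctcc
Insig1: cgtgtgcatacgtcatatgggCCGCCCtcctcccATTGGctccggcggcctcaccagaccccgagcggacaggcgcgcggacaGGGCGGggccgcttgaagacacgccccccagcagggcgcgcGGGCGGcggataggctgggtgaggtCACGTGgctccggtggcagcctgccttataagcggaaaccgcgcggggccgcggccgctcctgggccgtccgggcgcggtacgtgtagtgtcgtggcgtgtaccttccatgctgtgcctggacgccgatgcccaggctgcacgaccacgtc
All 5 promoters held CCAAT and GGGCGG, which were present in 37.4% and 35.7% of the 32851 promoters in the table. The Idi1 promoter held CCAAT at 2 places on the reverse strand, with leftmost bases 45 and 14 bases before the start site. Because the RefSeq start site of Idi1 is 8885606 and its gene in the count table starts at 8885501, both places lie inside that gene. TCACNCCAC was found in 1 of the 5, Hmgcs1, at 137 bases before the start site. The letters there, TCACCCCAC, contain CACCCCAC, so the match to CACCCCAC is the same place. These motifs occurred in 1 and 2 of the 19 sterol enzyme promoters with an entry, and in 1.24% and 2.87% of all promoters. The 19 include Hmgcs1, Idi1 and Lss, and Hmgcs1 is counted for both motifs. The E-box was found in Insig1, at 101 bases before the start site, and in 7.15% of all promoters. A match describes letters in these windows and not a bound site, and these windows leave out more distant elements.

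Srebf2 (ENSMUSG00000022463, chromosome 15, 82147181 to 82205379, + strand, GRCm38), which encodes the transcription factor, had levels of 46.5, 51.5, 50.1 and 57.4 CPM in Vehicle samples 1 to 4 and of 35.6, 30.8, 62.1 and 64.9 CPM in AG636 samples 1 to 4. AG636 samples 1 and 2 lay below every Vehicle sample, and AG636 samples 3 and 4 above every Vehicle sample. The means were 51.4 ± 4.52 CPM in Vehicle and 48.3 ± 17.6 CPM in AG636 (SD, n = 4), and the difference of −0.15 on the log2 scale (SE 0.22, 95% interval −0.64 to 0.33) was not called (limma adjusted p = 0.680). The spread between AG636 samples, a coefficient of variation of 36.5%, was well above the 5.63% that counting alone gives at these depths, while in Vehicle it was 8.80% against 5.43%. Without AG636 sample 2 the log2 fold change was 0.033. The interval leaves room for changes in both directions.

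Insig1 (ENSMUSG00000045294, chromosome 5, 28071363 to 28078662, + strand), which encodes the retention protein of the SREBP complex, was the member with the fewest counts, between 34 and 83 a sample. Its levels were 8.30, 9.07, 7.43 and 12.6 CPM in Vehicle and 6.07, 5.43, 7.66 and 8.53 CPM in AG636. The 4 AG636 samples lay below the Vehicle mean, and 2 of them overlapped the Vehicle range. The log2 fold change was −0.42 (SE 0.22, 95% interval −0.91 to 0.08, limma adjusted p = 0.235) and was not called. The interval includes 0 and also a decrease as large as that of Sqle.

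Hmgcs1 (ENSMUSG00000093930, chromosome 13, 119690379 to 119708260, + strand) encodes the cytosolic synthase that makes HMG-CoA, an early intermediate on the way to mevalonate. Its levels were 45.5, 42.9, 40.4 and 53.4 CPM in Vehicle and 39.0, 32.4, 44.5 and 49.7 CPM in AG636, with overlap between the groups. The log2 fold change was −0.14 (SE 0.14, 95% interval −0.46 to 0.17, limma adjusted p = 0.537).

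Idi1 (ENSMUSG00000058258, chromosome 13, 8885501 to 8892451, + strand) encodes the isomerase that interconverts isopentenyl and dimethylallyl diphosphate, the building blocks of all isoprenoids. Its levels were 29.0, 20.9, 29.2 and 34.7 CPM in Vehicle and 10.3, 6.54, 13.9 and 13.9 CPM in AG636. Each AG636 sample was below each Vehicle sample, and the highest AG636 level stood well under the lowest Vehicle level. Idi1 fell from 28.5 ± 5.68 to 11.1 ± 3.51 CPM (mean ± SD, n = 4), which is −1.38 on the log2 scale (SE 0.24, 95% interval −1.91 to −0.84, limma adjusted p = 0.00588), or 0.385 times the Vehicle level. The call held in each of the 8 fits that left out a single sample, with log2 fold changes from −1.52 to −1.15. Set against Hmgcs1 within the same libraries, the ratio of Idi1 to Hmgcs1 CPM was 0.638, 0.488, 0.724 and 0.650 in Vehicle and 0.263, 0.202, 0.312 and 0.279 in AG636. This ratio is free of library scaling, and it is given as a description with no test, since Idi1 was picked out after its values were seen.

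Fdft1 (ENSMUSG00000021273, chromosome 14, 63145150 to 63179578, − strand) encodes squalene synthase, which commits farnesyl diphosphate to sterols. Its levels were 48.5, 49.9, 52.5 and 40.2 CPM in Vehicle and 54.7, 38.9, 49.6 and 54.1 CPM in AG636, with overlap between the groups. The log2 fold change was 0.043 (SE 0.13, 95% interval −0.24 to 0.33, limma adjusted p = 0.856). The last 774 bases of Fdft1 overlap the end of Ctsb on the other strand, which had 8021 counts against 2542 for Fdft1, so without known strand use in counting the level of Fdft1 is uncertain.

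Sqle (ENSMUSG00000022351, chromosome 15, 59315077 to 59331192, + strand) encodes squalene epoxidase, a rate-limiting enzyme of the sterol branch. Its levels were 19.2, 18.4, 21.2 and 24.3 CPM in Vehicle and 9.33, 10.4, 14.2 and 18.6 CPM in AG636. All AG636 samples lay below the Vehicle mean, and AG636 sample 4 reached into the Vehicle range. Sqle fell from 20.8 ± 2.63 to 13.1 ± 4.23 CPM (mean ± SD, n = 4), which is −0.70 on the log2 scale (SE 0.21, 95% interval −1.15 to −0.24, limma adjusted p = 0.0463), just past the threshold of 0.05. This call was less stable than that of Idi1: it held in 2 of the 8 fits that left out a single sample, those without AG636 sample 3 or 4, and was lost without any 1 of the Vehicle samples or without AG636 sample 1 or 2 (adjusted p up to 0.118). It was also lost under edgeR's quasi-likelihood test (adjusted p = 0.0566).

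Lss (ENSMUSG00000033105, chromosome 10, 76531588 to 76557138, + strand) encodes lanosterol synthase, which closes the ring system after the epoxidase. Its levels were 9.76, 8.91, 7.58 and 14.6 CPM in Vehicle and 9.02, 8.46, 12.3 and 9.83 CPM in AG636, with between 49 and 96 counts a sample. The groups overlapped. The log2 fold change was −0.018 (SE 0.22, 95% interval −0.50 to 0.47, limma adjusted p = 0.968), and its sign depended on scaling, at 0.052 with library size alone.

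**Figure D2:**
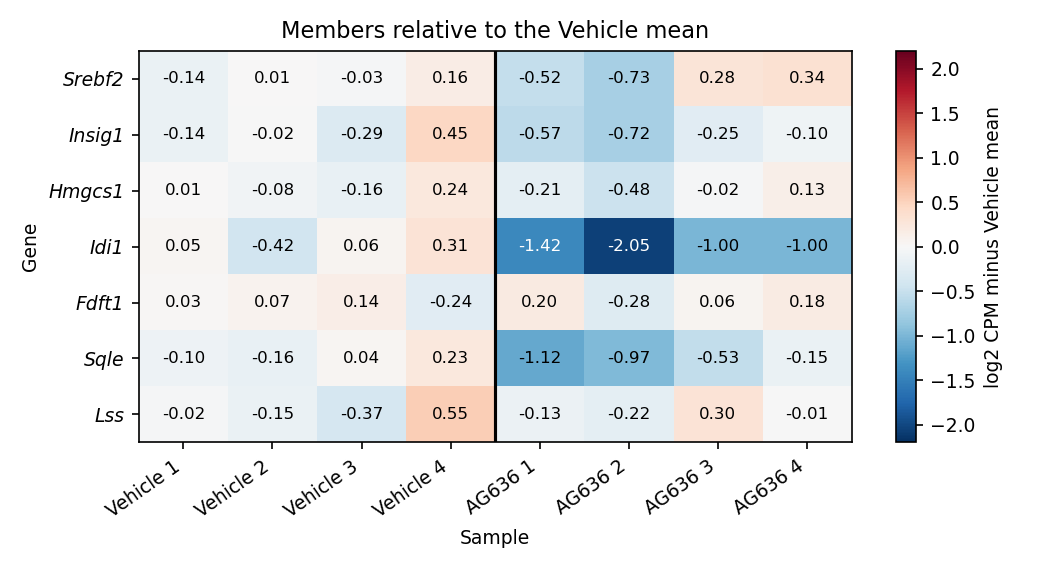
Log2 CPM of each member (rows) in each sample (columns) minus the mean of the Vehicle samples for that gene, with the value printed in each cell and red for higher and blue for lower. Idi1 lies between −2.05 and −0.997 in the 4 AG636 samples. Fdft1 and Lss stay within 0.545 of the Vehicle mean in every sample.

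Most members also moved in the same direction from sample to sample. Fdft1 did so in AG636 and went the other way in Vehicle. Averaged over the members, each centered on its own mean, log2 CPM was 0.15, 0.09, 0.11 and 0.44 in Vehicle samples 1 to 4 and −0.34, −0.58, 0.03 and 0.11 in AG636 samples 1 to 4. Vehicle sample 4 was the highest and AG636 sample 2 the lowest. Over the 8 samples, Pearson's r of log2 CPM between pairs of members ranged from −0.37 to 0.90, with a median of 0.69 over 21 pairs. When each gene was taken as its deviation from the group mean, so that the treatment difference is removed, r ranged from −0.37 to 0.93 with a median of 0.74, and 19 of 21 pairs were above 0. Hmgcs1 and Insig1 were the closest pair in both (0.90 and 0.93), and Fdft1 with Lss was the lowest in both. With the other members, Fdft1 had r from 0.35 to 0.81 in AG636 alone and from −0.995 to −0.61 in Vehicle alone. In Vehicle sample 4, Fdft1 lay at −0.24 from its Vehicle mean on the log2 scale and every other member above its own. No r was computed without Vehicle sample 4 and AG636 sample 3. These values describe 8 samples that share libraries, depth and scaling, and carry no test. The same r was not computed for pairs of other genes, so these values are not shown to be particular to the members. Likeness to the member average was then sought among the 5283 other genes with an average of at least 5 log2 CPM. Over the 8 samples, the levels most like it were those of Bop1 (r = 0.985), Jpt2 (0.982), Zfp706 (0.976), Cox5a (0.974) and Lyar (0.974). The most opposed were those of Tk2 (r = −0.986), Scyl2 (−0.977), Notch2 (−0.976), Lancl1 (−0.976) and Redrum (−0.973). These are the extremes of 5283 genes, and their r includes the difference between the groups. Members were not scaled to the same spread, so those that varied more, such as Idi1, weigh more in the average.

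The members were also set beside the other sterol enzymes. Of the 21 enzymes listed, all were tested, 18 had log2 fold changes below 0 and 3 above, and 4 were called, each lower, among them Idi1, Sqle and the late enzyme Ebp. The share called was 19.0%, against 14.0% of all genes tested, and the median log2 fold change was −0.17. Without the members, 2 of 16 enzymes were called, or 12.5%, which is below the share of all genes tested, and the median was −0.19. Ebp, the sterol isomerase, fell from 72.0 ± 1.41 to 52.3 ± 6.496 CPM (mean ± SD, n = 4), which is −0.47 on the log2 scale (SE 0.10, limma adjusted p = 0.0135), and kept its call without any single sample. Fdps, which makes farnesyl diphosphate next after Idi1, was not called (log2 fold change −0.87, SE 0.28, adjusted p = 0.0633), with as few as 20 counts in a sample, and it was called in 3 of 20 alternatives. Mvd, the decarboxylase that makes the substrate of Idi1, was not called either (log2 fold change −0.60, SE 0.33, adjusted p = 0.252), with as few as 12 counts.

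**Figure D3:**
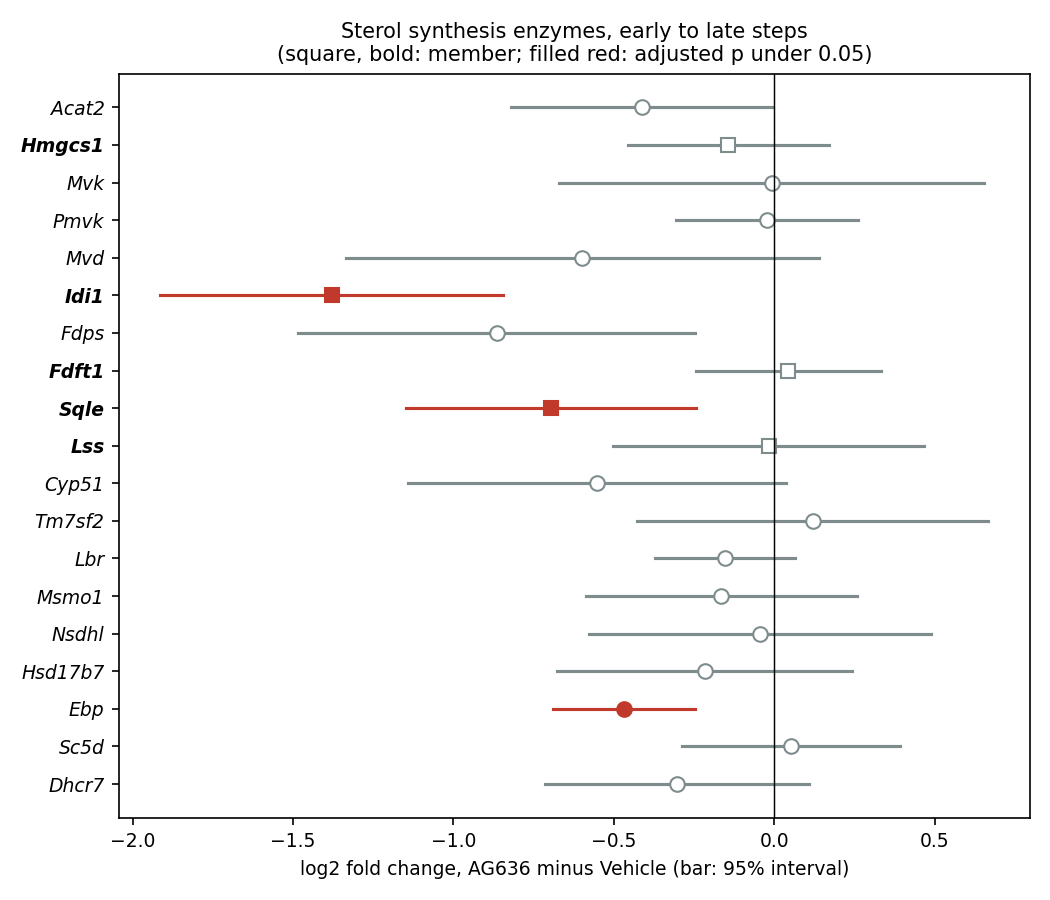
Log2 fold change, AG636 minus Vehicle (horizontal axis), with its 95% interval for 19 of the 21 sterol synthesis enzymes from early (top) to late (bottom) steps. Squares with bold names are members, and filled red symbols passed an adjusted p of 0.05. The 3 red symbols lie below 0, and most of the other intervals include 0.

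None of the 12 other genes tested of SREBP processing and control was called by limma (0 also by edgeR and DESeq2). Of all genes tested, 14.0% were called by limma. An unadjusted limma p under 0.05 was reached by 2 of the 12 and by 30.7% of all genes tested. The log2 fold changes of the 12 ranged from −0.31 to 0.16. Scap, the escort protein, had 98.1 ± 2.96 CPM in Vehicle and 84.1 ± 3.85 CPM in AG636 (SD, n = 4). Its groups were fully separate, as were those of 22.2% of all genes tested (12.9% lower in AG636). Scap was not called (log2 fold change −0.22, SE 0.08, limma adjusted p = 0.0783). Insig2, the paralog of Insig1, differed by 0.07 on the log2 scale (limma adjusted p = 0.660), and Srebf1, which encodes the factor for fatty acid genes, by −0.29 (adjusted p = 0.195).

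Of 11 tested genes of cholesterol uptake and transport, Npc1, the lysosomal cholesterol exporter, was called higher, by 0.41 on the log2 scale (SE 0.12, limma adjusted p = 0.0479). This is 9.09% of the list, against 14.0% of all genes tested. Its call held in 2 of the 8 fits that left out a sample, and it overlaps Rmc1 on the other strand by 967 bases, with 1456 counts against 1196. Of 10 tested genes of sterol esterification, efflux and LXR, the receptor that responds to excess sterols, 0 were called by limma, edgeR or DESeq2, and 4 had an unadjusted p under 0.05, which 30.7% of all genes tested had. Their median log2 fold change was 0.17, and there was 1 call, lower, without AG636 sample 3 and 1 call, higher, without AG636 sample 4.

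In the branches that use mevalonate for products other than sterols, 3 of 14 genes were called, each lower, which is 21.4% against 14.0% of all genes tested. Pdss1, which makes the side chain of ubiquinone, changed by −0.83 on the log2 scale (SE 0.18, limma adjusted p = 0.0134). Dhdds, of dolichol synthesis, changed by −0.34 (SE 0.09, adjusted p = 0.0344), and Rabggtb, of Rab prenylation, by −0.56 (SE 0.16, adjusted p = 0.0376). Without single samples the call held in 8 of 8 fits for Pdss1, in 1 for Dhdds and in 2 for Rabggtb. Without Vehicle sample 4 and AG636 sample 3, Pdss1 kept its call, Dhdds and Rabggtb lost theirs (adjusted p = 0.118 and 0.133), and 1 other gene of the list was called higher. Of 10 tested fatty acid synthesis genes, 2 were called, both lower, which is 20% against 14.0% of all genes tested. Without Vehicle sample 4 and AG636 sample 3, 1 more was called, higher. Fasn, fatty acid synthase, fell from 105 ± 10.5 to 49.3 ± 16.9 CPM (mean ± SD, n = 4), which is −1.14 on the log2 scale (SE 0.20, adjusted p = 0.00588), and Elovl1 by 0.66 on the log2 scale (SE 0.13, adjusted p = 0.0107), both in 8 of 8 fits without a sample. On the other strand, Elovl1 overlaps Cdc20 by 53 bases and Pdss1 overlaps Abi1 by 194 bases, so their counts are less certain, as are those of Rabggtb, which hosts small nucleolar RNA genes.

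**Figure D4:**
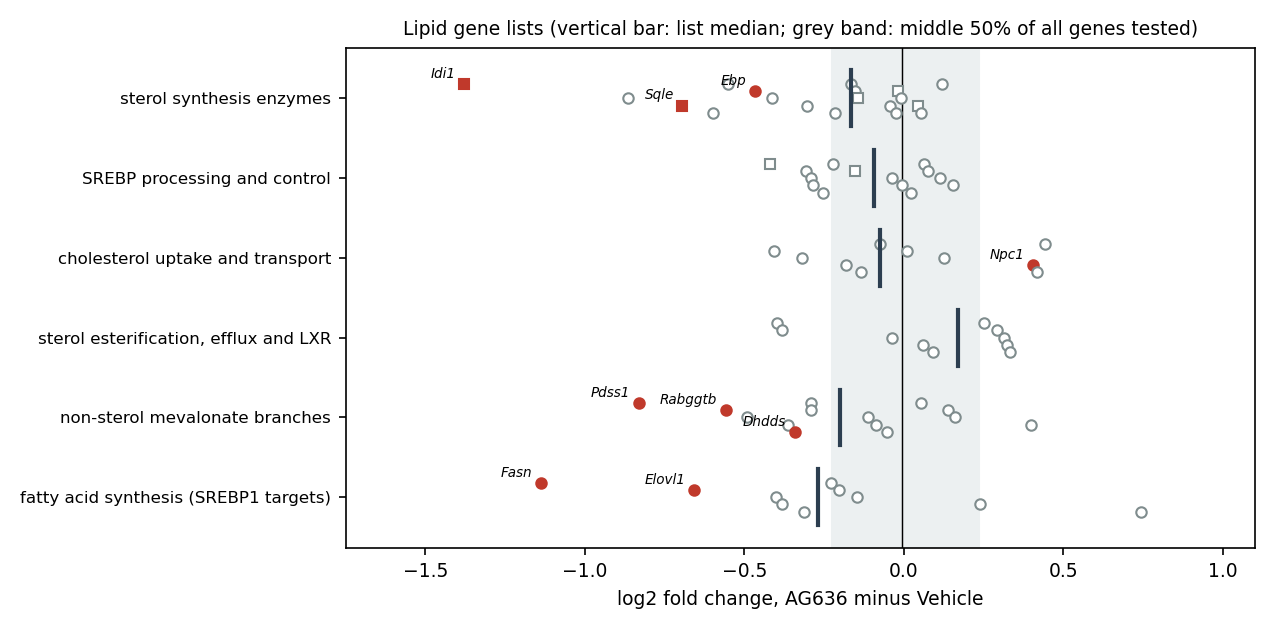
Log2 fold change, AG636 minus Vehicle (horizontal axis), of tested genes in 6 lists of lipid genes (a few are not drawn), with squares for members, filled red symbols and names for genes past an adjusted p of 0.05, and a vertical bar at each list median. The gray band spans the middle of all genes tested, from −0.22 to 0.24. Of the 9 red symbols, Npc1 alone lies above 0.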

How the data were processed

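RNA was measured with the QuantSeq 3′ kit in 8 samples of sorted AML cells, 4 Vehicle and 4 AG636, grouped by their titles. The deposited values are raw counts of reads per gene. To make them, the authors removed reads of low quality, trimmed primer-derived and poly-A bases with cutadapt, mapped reads to mm10 with HISAT2 and counted them with Subread. The submitters' processing notes list cutadapt 1.9.1 and HISAT2 2.0.4, and the methods of the study give other versions of cutadapt and Subread. Strand use and the handling of overlapping genes were not stated. Symbols came from a name table (54723 of 54838 genes), and 54037 of 54723 genes shared with GENCODE M21 had the same ends there.

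Genes were kept by filterByExpr (minimum count 10), scaled by TMM and compared by the voom method of limma 3.58.1 (with edgeR 4.0.16 under R 4.3.3), fitting the 8 samples by group alone. limma is named by the methods of the study. Tests were two-sided, and p-values were adjusted over all 10911 genes. Log2 CPM used a prior count of 2. No replicate pair agreed within sampling noise (chi-square per degree of freedom at least 3.88). Coefficients of variation from counting cover counting error only. Alternatives were DESeq2 1.42.0, the quasi-likelihood test of edgeR, limma-trend, sample quality weights, other scalings and filters, a block on the replicate number, removal of mitochondrial genes or of samples, and a threshold of 0.01.

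The members and gene lists were chosen with earlier results of these data known, so lists are described by counts and medians and were given no test of their own. Of 17 names in the SREBP control list 14 matched the table, the others being older names or absent from the name table. Genes named are the members, called genes of the lists, and those with the 5 highest and 5 lowest correlations with the member average. Mvd, Fdps, Scap, Insig2, Srebf1 and marker genes were named outside this rule, after their values were seen. A few listed genes are counted in their lists but not reported here.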

Additional observations from a re-analysis of the deposited data

Results flagged for a closer look

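Of 74 sets of 4 values checked for a sample far from its group, 3 stood out, by a gap above the 95% critical value of Dixon's test, where chance gives about 5% of sets. The progenitor gene Cd34 was at 35.6 CPM in AG636 sample 3, while the other AG636 samples lay between 4.05 and 5.11 CPM (gap of 0.966 of the range). The summed level of monocyte and macrophage markers in AG636 sample 2, in which the average of the members was lowest, was 6.54 CPM, while the other AG636 samples lay between 14.2 and 15.6 CPM (gap of 0.844 of the range). Flt3 in Vehicle sample 1 was at 0.437 CPM, which is 3 counts, while each of the other Vehicle samples had 1 count. The part of these in the results for the members was not tested.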

How the results depend on the processing

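Idi1 kept its direction and its call in all 20 alternatives with the 0.05 threshold (log2 fold change −1.52 to −1.15, limma adjusted p up to 0.0233) and was also past 0.01 in the fit of all samples. Sqle kept its direction in all 20 (−0.87 to −0.55) and its call in 7. The count of called members, 2, was 1 under edgeR's test, RLE factors, library size alone, upper-quartile factors, no filter, mitochondrial genes left out, Vehicle sample 4 with AG636 sample 3 left out, and a threshold of 0.01, and from 1 to 2 without single samples. The cause was not tested.

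Lss, close to 0, turned to 0.11 with quality weights, 0.0018 with RLE factors, 0.010 with upper-quartile factors, 0.052 with library size alone, 0.012 with at least 10 counts in every sample, 0.0013 without mitochondrial genes and 0.083 without Vehicle sample 4 and AG636 sample 3, where Fdft1 turned to −0.021. Without single samples, Lss ranged from −0.15 to 0.18, Fdft1 from −0.021 to 0.15 and Srebf2 from −0.31 to 0.033.

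Calls over all genes fell from 1523 to 435 at a threshold of 0.01, numbered 1964 under DESeq2, and ranged from 688 to 1706 without single samples, the lowest without Vehicle sample 3. Called sterol enzymes, 4, were 2 under edgeR, upper-quartile factors and library size alone, 1 at a threshold of 0.01, and 2 to 6 without single samples. The called uptake gene, 1, became 2 (1 higher, 1 lower) with quality weights and without Vehicle sample 4 and AG636 sample 3, 0 with no filter, under the block and at 0.01, and 0 to 2 without single samples, with 2 lower and 0 higher without AG636 sample 3 and 2 higher and 0 lower without AG636 sample 4. Efflux and LXR genes gave 0 to 1 calls without single samples, the call lower without AG636 sample 3 and higher without AG636 sample 4. Called genes of the other mevalonate branches, 3, were 1 with library size alone and under the block, 0 at 0.01, 1 higher and 1 lower without Vehicle sample 4 and AG636 sample 3, and 1 to 3 without single samples, with 1 higher and 2 lower without AG636 sample 3. Called fatty acid genes, 2, were 1 at 0.01 and 3 (1 higher, 2 lower) without Vehicle sample 4 and AG636 sample 3.

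Samples share only a replicate number. Deviations of same-numbered samples correlated at −0.14, 0.014, 0.20 and 0.14, and the replicate block gave 1446 calls over all genes, 2 called members, Idi1 at −1.35 (limma adjusted p = 0.00481) and Sqle at −0.67 (adjusted p = 0.0314).

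Counting error limits Insig1 and Lss most, with a coefficient of variation of 12.2 to 14.9% from counting alone.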
